A study of Homo sapiens with 18 samples.

Results

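The genes described here encode the chains of the collagens. They were chosen by name: every probe set with a single gene symbol of the form COL, a number, A and a number was taken, and the brightest probe set over all arrays stood for its gene. This gave 43 genes from 45 probe sets, of 18377 genes tested. Values came from A549, an established epithelial cell line from a human lung adenocarcinoma. The study asked how the response of these cells to TGFβ depends on PKCiota and PKCzeta, which are the atypical members of the protein kinase C family. In the siPKCiz arm cells received siRNA against both kinases. They were left untreated or were given TGFβ at 250 pM for 1 h, after which the ligand was washed off and the cells were collected at 8 h or 24 h. In the siControl arm cells carried a control siRNA and had the same 3 conditions. All 6 groups were of the same line, grown in 10% serum and kept in 0.2% serum during the experiment, and each held 3 biological replicates, 18 arrays in all. The labels gave no time for the untreated arrays.

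Collagens are secreted proteins in which chains wind around each other into a stiff helix, and each chain is the product of its own gene. Fibrillar collagens form the cables of connective tissue, collagen IV forms the sheet of basement membranes under epithelia, and collagen VII anchors that sheet to the tissue beneath it. Collagens with interrupted helices (FACIT) sit on the surface of fibrils, multiplexins lie in basement membrane zones, and transmembrane collagens stay on the cell surface. TGFβ is a secreted growth factor that acts through SMAD transcription factors and is known for raising matrix production in fibroblasts and in epithelial cells that undergo a mesenchymal transition. The 43 genes held 11 fibrillar chains, 6 chains of collagen IV, 6 beaded filament chains, COL7A1, 3 short chain network chains, 10 FACIT chains, 3 transmembrane chains, 2 multiplexins and COL26A1.

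Sequences are shown for the interval shared by COL4A1 and COL4A2, the genes with the largest changes, and for COL5A1, COL7A1 and COL4A3 as examples of genes that passed in other classes or in the comparison of the arms. COL1A1 had no entry in the promoter table. The collagen IV genes stand in pairs that run in opposite directions from a short shared interval. There were 126 bases between the starts of COL4A1 and COL4A2, 418 between those of COL4A4 and COL4A3 and 379 between those of COL4A6 and COL4A5. Sequences are from RefSeq on GRCh38.p14. The first line below is the interval between the starts of COL4A1, read leftward from it, and COL4A2, at chr13:110307158-110307283 on the plus strand. The other lines are the 250 bases before the start of COL5A1 at chr9:134641553-134641802 on the plus strand, of COL7A1 at chr3:48595330-48595579 on the minus strand and of COL4A3 at chr2:227164374-227164623 on the plus strand. Capitals mark matches on either strand to the SMAD box CAGAC, the GC box GGGCGG, the TATA box TATAAA, the E-box CACCTG and the CCAAT box; none of these motifs contains another.
COL4A1-COL4A2: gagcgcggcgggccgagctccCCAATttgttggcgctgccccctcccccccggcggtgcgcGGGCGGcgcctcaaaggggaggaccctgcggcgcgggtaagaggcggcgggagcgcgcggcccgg
COL5A1: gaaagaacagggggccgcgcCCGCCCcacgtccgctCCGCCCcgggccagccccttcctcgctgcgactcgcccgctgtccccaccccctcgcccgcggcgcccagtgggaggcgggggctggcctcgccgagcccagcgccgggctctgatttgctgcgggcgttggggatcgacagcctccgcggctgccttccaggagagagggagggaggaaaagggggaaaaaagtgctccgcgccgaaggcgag
COL7A1: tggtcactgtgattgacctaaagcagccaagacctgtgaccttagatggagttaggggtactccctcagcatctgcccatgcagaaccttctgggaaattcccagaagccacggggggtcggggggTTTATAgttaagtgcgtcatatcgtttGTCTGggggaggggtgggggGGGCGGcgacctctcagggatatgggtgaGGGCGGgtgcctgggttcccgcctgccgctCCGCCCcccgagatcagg
COL4A3: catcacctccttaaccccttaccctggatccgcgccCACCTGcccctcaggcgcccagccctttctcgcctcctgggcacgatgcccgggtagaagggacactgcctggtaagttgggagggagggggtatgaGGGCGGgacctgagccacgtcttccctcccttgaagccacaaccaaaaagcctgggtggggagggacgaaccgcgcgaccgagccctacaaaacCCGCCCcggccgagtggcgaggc

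The COL4A1-COL4A2 interval was 80.2% G and C and held 1 GC box and 1 CCAAT box, with no SMAD box and no TATA box. Of all RefSeq starts, 34.6% had a GC box, 21.1% a CCAAT box and 19.8% a SMAD box in the 126 bases before them. COL7A1 held 3 GC boxes, 1 TATA box and 1 SMAD box, and COL5A1 held 2 GC boxes. A RefSeq start was found for 31 of the 43 genes, with 43 starts in all. In the 250 bases before the start, 16 of these 43 starts (37.2%) held a SMAD box, against 38% of 35116 starts of all genes. A GC box stood before 24 (55.8%), against 42.6% of all starts. A TATA box stood before 16.3%, against 10.7% of all starts, an E-box before 11.6%, against 17.5%, and a CCAAT box before 25.6%, against 32%.

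Replicate 1 of each group stood apart from the other replicates. Across genes, replicates 2 and 3 of a group correlated at 0.996 to 0.998, and replicate 1 correlated with them at 0.992 to 0.995. PRKCI, which encodes PKCiota, lay between 8.84 and 9.28 in siPKCiz and between 11.03 and 11.46 in siControl on the log2 intensity scale. PRKCZ, which encodes PKCzeta, lay between 7.15 and 7.56 in replicates 2 and 3 of siPKCiz and between 8.64 and 8.94 in those of siControl. In replicate 1 it lay between 7.68 and 7.99 in siPKCiz and between 8.05 and 8.27 in siControl, so that the arms were closer together there. Differences between the arms are therefore given with and without replicate 1. The part that the weaker separation of PRKCZ plays in them was not tested.

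Part of the collagen chain genes were dim in these cells, as part of all genes were. On all 18 arrays, 12 of the 43 were above the array's median over all probe sets, which lay between 7.29 and 7.33, 12 more were above it on some arrays, and 19 (44.2%) were above it on 0 arrays, as were 35.2% of all genes. The epithelial markers EPCAM, CDH1, KRT7, KRT8, KRT18 and KRT19 were above the median on 18 arrays. Of 6 fibroblast markers DCN, PDGFRB and FAP were above it on 0 arrays, PDGFRA on 1, LUM on 14 and THY1 on 18. Of 4 leukocyte markers PTPRC and CD3E were above it on 0 arrays, CD14 on 3 and CD68 on 18. The 4 endothelial markers PECAM1, CDH5, TEK and KDR were above it on 0 arrays. Cells were measured in bulk, so fewer cells of a kind and less RNA per cell cannot be told apart.

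TGFβ raised a small group of collagen genes, led by the collagen IV pair COL4A1 and COL4A2, the collagen I chain COL1A1 and the collagen V chain COL5A1. At 8 h in siPKCiz cells 5 of the 43 genes were higher (limma, Benjamini-Hochberg adjusted p under 0.05), or 11.6%, against 3.13% of all genes, and 0 were lower, against 3.35%. At 8 h in siControl cells 6 were higher, or 14%, against 5.17% of all genes, and 0 were lower, against 6.18%. At 24 h in siPKCiz cells 10 were higher, or 23.3%, against 4.65% of all genes, and 0 were lower, against 6.09%. At 24 h in siControl cells 9 were higher, or 20.9%, against 5.85%, and 2 were lower, or 4.65%, against 6.46%. The median change of the 43 genes at 24 h was 0.15 log2 units in siPKCiz, where that of all genes was -0.01, and 0.05 in siControl, where that of all genes was also -0.01. The comparisons at both times share the untreated arrays of their arm. At 24 h the summed intensity of the 6 fibroblast markers also differed. It was 10.05 to 10.21 log2 against 9.55 to 9.75 untreated in siPKCiz, and 10.08 to 10.16 against 9.71 to 9.94 in siControl. At 8 h it was 9.53 to 9.75 in siPKCiz and 9.64 to 9.81 in siControl, overlapping the untreated values. Of the 6, LUM (0.84) and PDGFRA (0.67) passed at 24 h in siPKCiz and LUM (1.28) in siControl. THY1 had changes of 0.10 in siPKCiz and -0.08 in siControl at 24 h. At 24 h, of the 6 epithelial markers CDH1 (-1.37) and KRT19 (-0.90) were lower in siPKCiz, and CDH1 (-1.62), EPCAM (-1.23) and KRT19 (-1.07) in siControl. KRT7 had group means of 13.05 at 24 h against 12.88 untreated in siPKCiz, and 12.96 against 12.78 in siControl. At 8 h 1 of the 6 was higher and 2 were lower in each arm. The part of these markers in the collagen results was not tested.

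**Figure D1:**
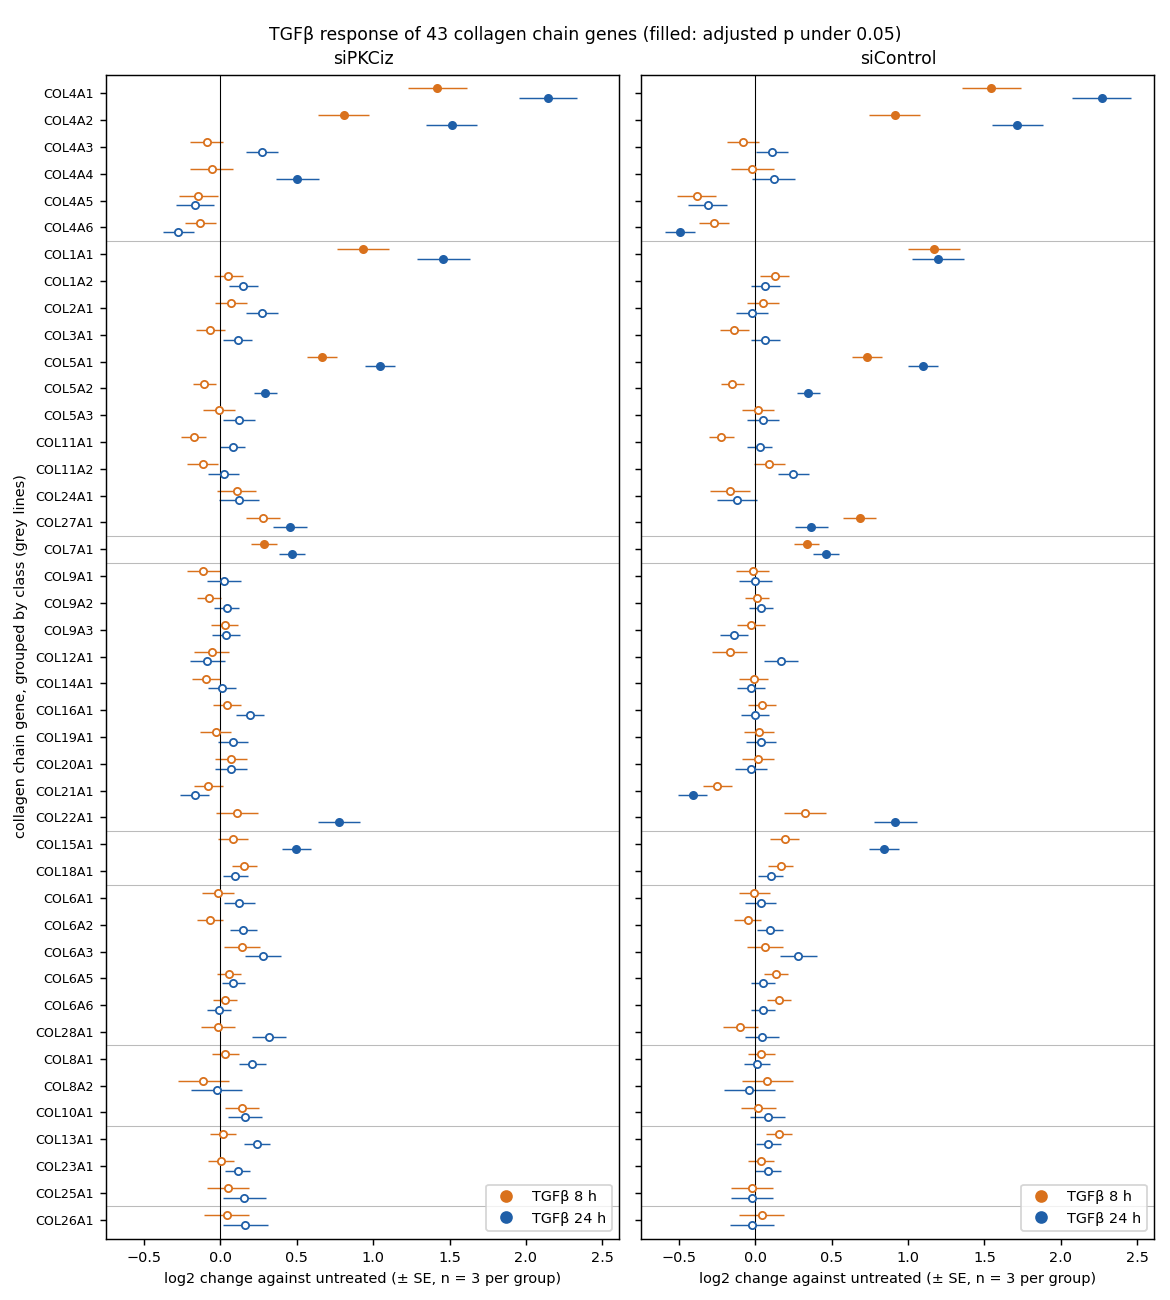
Log2 change (± SE) of each of the 43 collagen chain genes with TGFβ against untreated, grouped by class down the page, with siPKCiz left and siControl right and both times in each panel; filled points passed the test. COL4A1 has the largest change at 24 h, 2.14 in siPKCiz and 2.27 in siControl, and most genes lie near 0.

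Collagen IV chains came first in size. COL4A1 and COL4A2 encode the chains found in nearly all basement membranes. COL4A1 measured 7.86, 8.38 and 8.04 log2 intensity in untreated siPKCiz cells, 9.87, 9.34 and 9.33 at 8 h, and 10.65, 10.07 and 10.00 at 24 h. In siControl cells it measured 7.97, 8.37 and 8.44 untreated, 9.90, 9.72 and 9.79 at 8 h, and 10.19, 10.70 and 10.69 at 24 h. Within each arm all arrays at 24 h were above all at 8 h, and those above all untreated arrays. At 24 h COL4A1 was higher by 2.14 ± 0.19 log2 units in siPKCiz (SE; 4.42-fold; limma adjusted p = 9.69e-07) and by 2.27 ± 0.19 in siControl (4.81-fold; limma adjusted p = 5.29e-07). At 8 h it was higher by 1.42 in siPKCiz (limma adjusted p = 0.000177) and by 1.54 in siControl (limma adjusted p = 3.70e-05).

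COL4A2 lies on the other side of the interval printed above. It measured 9.10, 9.43 and 9.28 log2 intensity in untreated siPKCiz cells, 10.37, 9.96 and 9.91 at 8 h, and 11.20, 10.66 and 10.49 at 24 h. With the control siRNA it measured 9.03, 9.54 and 9.51 untreated, 10.25, 10.29 and 10.28 at 8 h, and 10.89, 11.22 and 11.11 at 24 h. The untreated, 8 h and 24 h arrays of each arm did not overlap. At 24 h it was higher by 1.51 ± 0.17 log2 units in siPKCiz (2.86-fold; limma adjusted p = 9.69e-06) and by 1.72 ± 0.17 in siControl (3.28-fold; limma adjusted p = 1.96e-06). At 8 h it was higher by 0.81 in siPKCiz (limma adjusted p = 0.00519), a call that was lost without replicate 2 (0.94) or 3 (0.90), and by 0.91 in siControl (limma adjusted p = 0.00116).

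The other 4 collagen IV genes had smaller changes. COL4A3 and COL4A4 encode chains of the network found in the basement membranes of the kidney's filter and the lung's alveoli. COL4A4 measured 7.73, 7.41 and 7.13 in siPKCiz cells at 24 h, against 6.96, 6.86 and 6.95 in untreated siPKCiz cells. All 3 arrays at 24 h were higher, by 0.50 ± 0.14 log2 units on average (limma adjusted p = 0.0247), but the call was lost without replicate 1 (0.37) and without replicate 2 (0.48). In siControl cells the change of COL4A4 was 0.12 and did not pass. COL4A3 had changes of 0.27 in siPKCiz and 0.11 in siControl at 24 h, and neither passed. COL4A6, whose chain pairs with that of COL4A5 in some epithelial basement membranes, measured 7.18, 6.80 and 6.86 at 24 h, against 7.49, 7.44 and 7.38 untreated, in siControl cells. It was lower there by 0.49 log2 units (a change of -0.49 ± 0.10; limma adjusted p = 0.0026), and the call was lost without replicate 2 (-0.42) or 3 (-0.48). In siPKCiz its change was -0.27 and did not pass. COL4A5 did not pass in either arm, with -0.17 in siPKCiz and -0.31 in siControl.

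Among the fibrillar chains COL1A1 changed most and its partner COL1A2 did not pass in any comparison. COL1A1 encodes the chain that makes up most of collagen I, and COL1A2 encodes the other. COL1A1 measured 8.54, 8.59 and 8.31 log2 intensity in untreated siPKCiz cells, 9.78, 9.22 and 9.23 at 8 h, and 9.95, 10.07 and 9.81 at 24 h. In siControl the values were 8.33, 8.67 and 8.50 untreated, 9.85, 9.59 and 9.57 at 8 h, and 9.25, 10.00 and 9.83 at 24 h. In both arms all arrays with TGFβ were above the untreated arrays. In siControl replicate 1 at 24 h was the lowest array with TGFβ. At 24 h COL1A1 was higher by 1.46 ± 0.17 log2 units in siPKCiz (2.75-fold; limma adjusted p = 1.66e-05) and by 1.19 ± 0.17 in siControl (2.29-fold; limma adjusted p = 9.41e-05). At 8 h it was higher by 0.93 in siPKCiz (limma adjusted p = 0.00197), a call that was lost without replicate 3 (0.94), and by 1.17 in siControl (limma adjusted p = 0.000172). COL1A2 measured between 6.62 and 7.02 over all 18 arrays, below every array's median. Its change at 24 h was 0.15 ± 0.10 in siPKCiz and 0.07 ± 0.10 in siControl, which did not pass.

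Collagen V starts and limits the growth of collagen I fibrils. Its chain gene COL5A1 was higher at 24 h by 1.05 ± 0.098 log2 units in siPKCiz (2.06-fold; limma adjusted p = 1.79e-06), with 9.21, 9.30 and 9.19 against 8.17, 8.31 and 8.09 untreated. In siControl it was higher by 1.10 ± 0.098 (2.14-fold; limma adjusted p = 1.05e-06), with 9.32, 9.46 and 9.38 against 8.10, 8.44 and 8.34 untreated. COL5A1 also passed at 8 h, with 0.67 in siPKCiz and 0.73 in siControl. COL5A2, which encodes the partner chain, passed at 24 h and not at 8 h. It measured 9.94, 10.00 and 10.01 in untreated siPKCiz cells, 9.79, 9.92 and 9.93 at 8 h, and 10.25, 10.32 and 10.26 at 24 h. In siControl cells it measured 10.05, 9.96 and 9.89 untreated, 9.95, 9.70 and 9.80 at 8 h, and 10.25, 10.36 and 10.32 at 24 h. Its changes at 8 h, -0.10 in siPKCiz and -0.15 in siControl, did not pass, while at 24 h it was higher by 0.30 in siPKCiz (limma adjusted p = 0.0158) and by 0.35 in siControl (limma adjusted p = 0.00434). The 24 h calls were lost without replicate 2 (0.28 in siPKCiz and 0.32 in siControl) and without replicate 3 (0.32 and 0.31).

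COL27A1 encodes a fibrillar chain known from cartilage. In siPKCiz cells it measured 7.99, 8.06 and 7.91 untreated, 8.42, 8.22 and 8.17 at 8 h, and 8.58, 8.41 and 8.35 at 24 h. In siControl the values were 8.03, 8.02 and 8.02 untreated, 8.74, 8.67 and 8.71 at 8 h, and 8.06, 8.50 and 8.61 at 24 h. Replicate 1 of siControl at 24 h thus lay close to the untreated arrays. At 8 h its change of 0.28 in siPKCiz did not pass (limma adjusted p = 0.161), and it was higher by 0.68 ± 0.11 in siControl (limma adjusted p = 0.000378). At 24 h it was higher by 0.46 in siPKCiz (limma adjusted p = 0.00987) and by 0.37 in siControl (limma adjusted p = 0.0334). The 24 h calls were lost without replicate 2 (0.51 in siPKCiz and 0.31 in siControl) and without replicate 3 (0.47 and 0.26). The other 6 fibrillar genes, among them COL3A1, COL11A1 and COL11A2, did not pass in any TGFβ comparison.

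COL7A1 encodes the chain of the anchoring fibrils. It measured 8.33, 8.41 and 8.41 at 24 h, against 8.07, 7.86 and 7.81 untreated, in siPKCiz cells, and 8.35, 8.57 and 8.60 against 8.01, 8.08 and 8.05 in siControl cells. All arrays at 24 h were above the untreated ones. It was higher by 0.47 ± 0.084 log2 units in siPKCiz (limma adjusted p = 0.000991) and by 0.46 ± 0.084 in siControl (limma adjusted p = 0.000885). At 8 h it was higher by 0.29 in siPKCiz (limma adjusted p = 0.0483) and by 0.34 in siControl (limma adjusted p = 0.0116). The 24 h calls were lost without replicate 2 (0.43 in siPKCiz and 0.45 in siControl) and without replicate 3 (0.41 and 0.42). At 8 h they were lost likewise, without replicate 2 (0.26 in siPKCiz and 0.33 in siControl) and without replicate 3 (0.28 and 0.37).

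**Figure D2:**
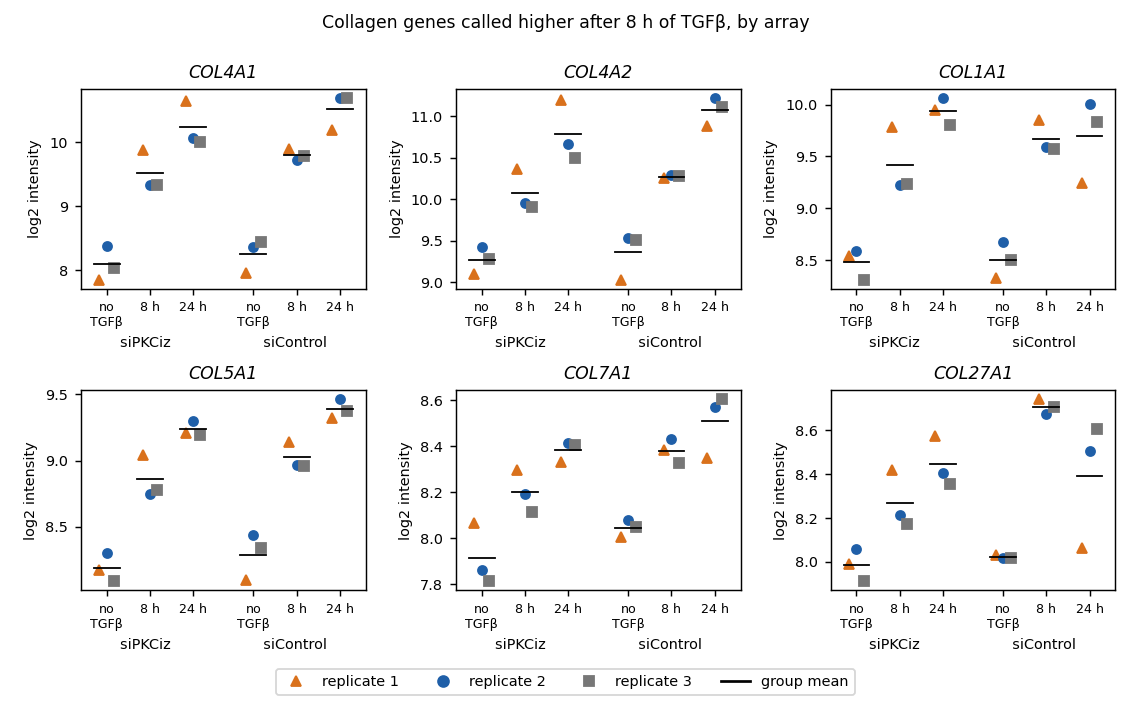
Log2 intensity on each array of COL4A1, COL4A2, COL1A1, COL5A1, COL7A1 and COL27A1. Cells were untreated, or were given TGFβ for 1 h and collected at 8 h or 24 h. The siPKCiz arm stands left of siControl, with a symbol for each replicate number and a bar at each group mean. COL4A1 reaches 10.00 to 10.65 in siPKCiz and 10.19 to 10.70 in siControl at 24 h, and replicate 1 is the highest of the siPKCiz arrays and the lowest of the siControl arrays there.

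COL22A1 and COL15A1 were dim without TGFβ and passed at 24 h, not at 8 h. COL22A1 encodes a FACIT chain found at tissue junctions, such as that of muscle and tendon, and COL15A1 a multiplexin of basement membrane zones. COL22A1 measured 6.75, 6.84 and 6.75 in untreated siPKCiz cells, 6.94, 6.85 and 6.88 at 8 h, and 7.99, 7.33 and 7.35 at 24 h. With the control siRNA it measured 6.83, 6.88 and 6.94 untreated, 7.04, 7.31 and 7.29 at 8 h, and 7.57, 7.87 and 7.97 at 24 h. Replicate 1 was the highest of the siPKCiz arrays at 24 h and the lowest of the siControl arrays. COL22A1 was higher at 24 h by 0.78 ± 0.14 in siPKCiz (1.71-fold; limma adjusted p = 0.000942) and by 0.92 ± 0.14 in siControl (1.89-fold; limma adjusted p = 0.000152).

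COL15A1 measured 6.63, 6.52 and 6.55 in untreated siPKCiz cells, 6.70, 6.68 and 6.56 at 8 h, and 7.22, 6.97 and 7.00 at 24 h. In siControl the values were 6.65, 6.63 and 6.92 untreated, 6.88, 6.83 and 7.07 at 8 h, and 7.44, 7.66 and 7.62 at 24 h. The 24 h arrays were above the others in both arms, and at 24 h all siPKCiz arrays were below all siControl arrays. It was higher at 24 h by 0.50 ± 0.096 in siPKCiz (1.41-fold; limma adjusted p = 0.00189) and by 0.84 ± 0.096 in siControl (1.79-fold; limma adjusted p = 9.33e-06). The other multiplexin, COL18A1, whose product is cut to release endostatin, had a change of 0.10 in each arm at 24 h and did not pass. COL21A1, a FACIT chain, measured 6.43, 6.40 and 6.51 at 24 h, against 6.97, 6.60 and 6.98 untreated, in siControl cells. It was lower there, with a change of -0.41 (limma adjusted p = 0.00675), and the call was lost without replicate 1 (-0.34) or 3 (-0.38). COL21A1 was above the array's median on 0 arrays. The beaded filament, short chain network and transmembrane chains and COL26A1 passed in none of the TGFβ comparisons. COL6A1, COL6A2 and COL6A3, the classical collagen VI chains, had changes at 24 h of 0.12, 0.15 and 0.28 in siPKCiz and of 0.04, 0.10 and 0.28 in siControl.

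Between 8 h and 24 h the collagen genes that differed were all higher at 24 h. In siPKCiz cells 3 of 43 were higher, or 6.98%, against 0.386% of all genes, and 0 were lower, against 0.419%. They were COL22A1 (0.67), COL15A1 (0.42, limma adjusted p = 0.0496) and COL5A2 (0.40). In siControl cells 4 were higher, or 9.3%, against 1.31%, and 0 were lower, against 1.1%. They were COL4A2 (0.80), COL15A1 (0.65), COL22A1 (0.59) and COL5A2 (0.50). COL4A1 was near the threshold, with 0.72 in each arm (limma adjusted p = 0.0909 in siPKCiz and 0.0547 in siControl), and passed without replicate 1, with 0.70 in siPKCiz and 0.94 in siControl. Without replicate 2, 0 of the 43 genes passed in either arm, against 0.00544% of all genes in siPKCiz and 0.0599% in siControl. Without replicate 3, 0 passed likewise, against 0.0599% and 0.0707% of all genes. The called differences were then 0.40 to 0.76 in siPKCiz and 0.41 to 0.78 in siControl. COL15A1 in siPKCiz was also lost without replicate 1 (0.36).

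With the called genes included, in siPKCiz 36 of the 43 genes had a positive difference between 24 h and 8 h. The median of the 43 was 0.14 log2 units, against -0.01 for all genes. For 19 of the 43 all 24 h arrays were above all 8 h arrays, against 7.84% of all genes. Among the 19 genes that were below the median on every array, 16 differences were positive, against 63.5% of all equally dim genes, and 5 had arrays that did not overlap, against 9.77%. In siControl 8 of these 19 differences were positive, against 40.2% of all equally dim genes, and 0 had 24 h arrays above all 8 h arrays, against 2.83%. Over all collagen genes in siControl, 26 of the 43 differences were positive, with a median of 0.03, and 9 had 24 h arrays above all 8 h arrays, against 7.3% of all genes. For COL27A1 (-0.32) and COL21A1 (-0.16) in siControl, all 24 h arrays were below all 8 h arrays. Whether the arms differ in these counts was not tested.

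**Figure D3:**
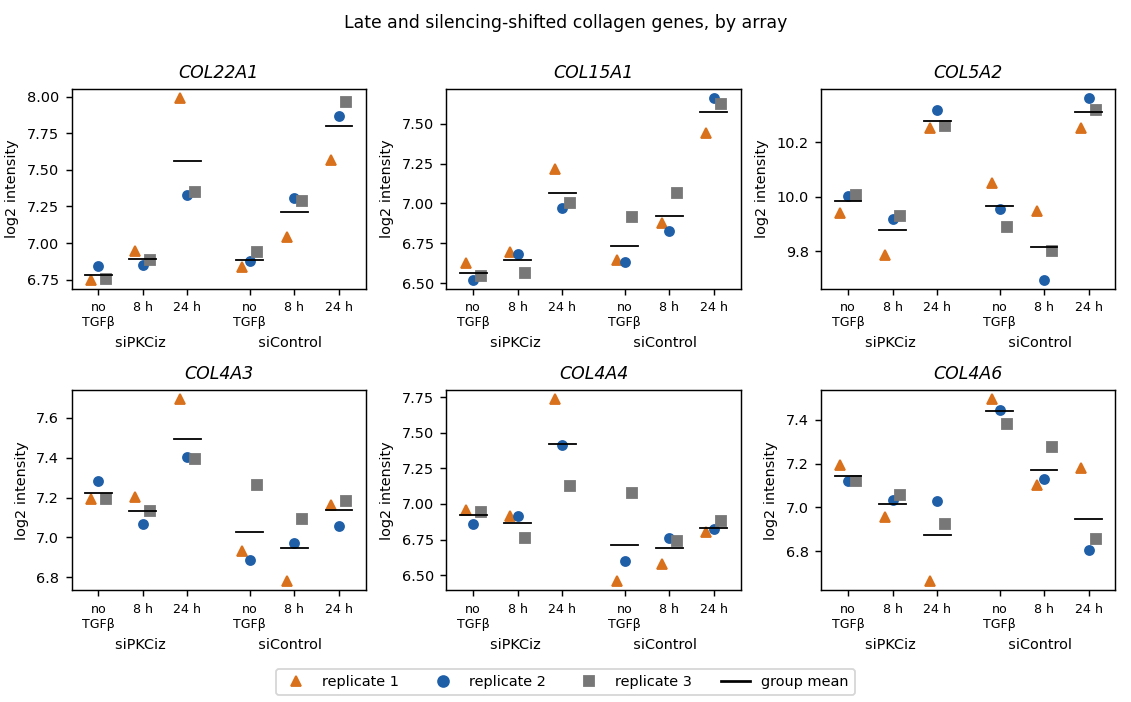
Log2 intensity on each array of COL22A1, COL15A1, COL5A2, COL4A3, COL4A4 and COL4A6. Cells were untreated, or were given TGFβ for 1 h and collected at 8 h or 24 h. The siPKCiz arm stands left of siControl, with a symbol for each replicate number and a bar at each group mean. COL15A1 at 24 h lies at 6.97 to 7.22 in siPKCiz and at 7.44 to 7.66 in siControl.

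Silencing of PKCiota and PKCzeta moved few collagen genes when all arrays were used. In untreated cells 0 of the 43 passed (limma; 1 at an unadjusted p under 0.05), against 3.58% of all genes. With array weights 4 passed, or 9.3%, against 16.1% of all genes. At 8 h 1 gene was lower in siPKCiz, or 2.33%, against 1.9% of all genes, and 0 were higher, against 3.52%. This was COL27A1, with a difference of -0.44 ± 0.11 log2 units (limma adjusted p = 0.0267). At 24 h 1 was lower, against 1.68% of all genes, and 1 was higher, against 1.51%. COL15A1 was lower by 0.51 log2 units (a difference of -0.51 ± 0.096; limma adjusted p = 0.00631), and COL4A4 was higher by 0.59 ± 0.14 (limma adjusted p = 0.0252). These shares are close to those of all genes. The call of COL27A1 was lost without replicate 2 (-0.43) or 3 (-0.39), that of COL15A1 without replicate 2 (-0.42) or 3 (-0.46), and that of COL4A4 without replicate 1 (0.42) or 2 (0.59).

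Over the mean of the 3 conditions 2 collagen genes were higher in siPKCiz, or 4.65%, against 11.8% of all genes, and 4 were lower, or 9.3%, against 8.17%. The higher genes were the neighbours COL4A4 (0.32 ± 0.081; limma adjusted p = 0.00809) and COL4A3 (0.25 ± 0.061; limma adjusted p = 0.00727). The lower genes were COL15A1 (-0.32 ± 0.055; limma adjusted p = 0.000514), COL11A2 (-0.27 ± 0.058; limma adjusted p = 0.00261), COL4A6 (-0.17; limma adjusted p = 0.0416) and COL7A1 (-0.14; limma adjusted p = 0.0426). COL11A2, which encodes a chain of the thin fibrils of cartilage, measured 7.13, 6.76 and 6.73 in siPKCiz and 7.14, 7.22 and 7.33 in siControl at 24 h. It was above the array's median on 1 array. A dimmer COL11A2 probe set with other values (mean 6.85) was not used in this fit. Without replicate 1 the calls of COL4A3 (0.17), COL4A4 (0.19) and COL4A6 (-0.10) were lost. Without replicate 2 those of COL4A3 (0.23), COL4A4 (0.32), COL4A6 (-0.23), COL7A1 (-0.11) and COL11A2 (-0.27) were lost, and without replicate 3 those of COL4A6 (-0.19), COL7A1 (-0.11), COL11A2 (-0.20) and COL15A1 (-0.23). Over the same mean 3 of the 6 epithelial markers were higher in siPKCiz, EPCAM (0.76), CDH1 (0.49) and KRT19 (0.25). Of the 6 fibroblast markers LUM (0.55) was higher and THY1 (-0.65) lower. The part of these markers in the collagen results was not tested.

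For COL4A1 and COL4A2 at 24 h the order of the arms in replicate 1 was opposite to that in replicates 2 and 3. COL4A1 was 10.65 in siPKCiz and 10.19 in siControl in replicate 1, but 10.07 and 10.00 in siPKCiz against 10.70 and 10.69 in siControl in replicates 2 and 3. COL4A2 was 11.20 in siPKCiz and 10.89 in siControl in replicate 1, but 10.66 and 10.49 in siPKCiz against 11.22 and 11.11 in siControl in the others. Not every gene that TGFβ raised did so: COL15A1 was lower in siPKCiz in all 3 replicates, with 7.22, 6.97 and 7.00 in siPKCiz against 7.44, 7.66 and 7.62 in siControl. Of the 43 genes 22 had their highest siPKCiz array at 24 h in replicate 1, against 35.3% of all genes, and 24 had their lowest siControl array there, against 39%. At 8 h the counts were 25, against 35.7%, and 27, against 36.5%. In untreated cells they were 16, against 31.9%, and 11, against 38.3%, so the pattern was not seen there.

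Without replicate 1, with 2 arrays in each group, more of all genes differed between the arms, collagen genes among them. Of all genes 19% passed at 8 h and 11.3% at 24 h. With all arrays 3.52% were higher and 1.9% lower at 8 h, and 1.51% and 1.68% at 24 h. At 24 h 6 were lower in siPKCiz, against 5.68% of all genes, and 0 were higher, against 5.63%. These were COL4A1 (-0.66 ± 0.10; limma adjusted p = 0.000376), COL4A2 (-0.59 ± 0.091; limma adjusted p = 0.000395), COL15A1 (-0.65), COL22A1 (-0.58), COL11A2 (-0.53) and the collagen VI chain COL6A3 (-0.39). COL6A3 was above the array's median on 0 arrays. With all arrays the differences of COL4A1 and COL4A2 were each -0.29 and did not pass (limma adjusted p = 0.535 and 0.446). At 8 h 9 were lower, against 6.72%, and 1 was higher, against 12.2%. The lower genes were COL27A1 (-0.50), COL22A1 (-0.43), COL4A1 (-0.42), COL26A1 (-0.37), COL11A2 (-0.36), COL1A1 (-0.35), COL4A2 (-0.35), COL15A1 (-0.32) and COL6A3 (-0.31). The higher gene was the FACIT chain COL12A1 (0.51 ± 0.10; limma adjusted p = 0.00247). In untreated cells 2 genes passed, against 8.23%: COL12A1 was higher (0.36) and COL4A6 lower (-0.29). Over the mean of the conditions 10 were lower, against 12.5%, and 2, COL12A1 and COL6A1, were higher, against 18.9%.

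**Figure D4:**
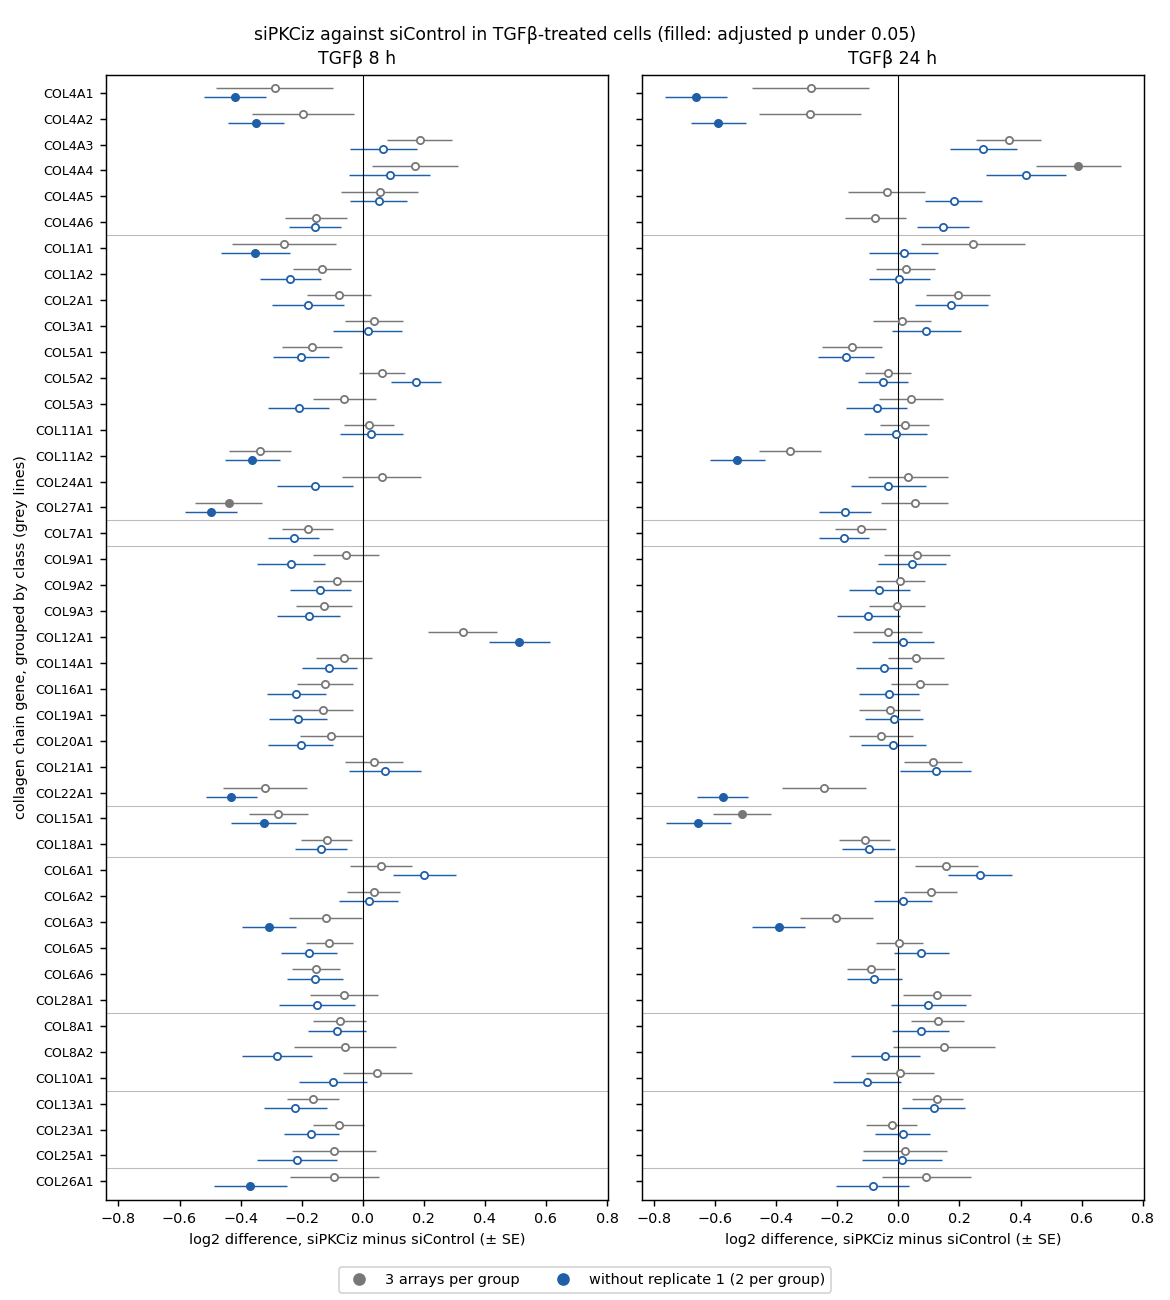
Log2 difference (± SE), siPKCiz minus siControl, of each of the 43 collagen chain genes at 8 h (left) and 24 h (right), with all 3 arrays per group in grey and without replicate 1 in blue; filled points passed the test. COL4A1 at 24 h lies at -0.29 with all arrays and at -0.66 without replicate 1.

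The size of the TGFβ response was compared between the arms by the interaction of siRNA and TGFβ. At 8 h and at 24 h 0 of the 43 genes passed, and 0% of all genes (limma; at an unadjusted p under 0.05 1 of the 43 genes and 625 of all at 8 h, and 1 and 705 at 24 h). For COL4A1 at 24 h the response in siPKCiz minus that in siControl was -0.12 log2 units, with a 95% interval of -0.69 to 0.44. For COL4A2 it was -0.20 (-0.70 to 0.29) and for COL1A1 0.27 (-0.24 to 0.77). The unadjusted passes were COL27A1 at 8 h (-0.40) and COL15A1 at 24 h (-0.34). Without replicate 1 the interaction of COL4A1 at 24 h was -0.47 ± 0.14 and that of COL4A2 -0.42 ± 0.13 (limma adjusted p = 0.289 for each), and 0 of the 43 genes passed, against 0.316% of all genes at 8 h and 0.435% at 24 h.

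Collagen chains need enzymes and chaperones that hydroxylate, fold, trim and cross-link them. Of 18 measured genes for folding and hydroxylation, 2 were higher at 24 h in siPKCiz and 5 in siControl, with none lower. The prolyl hydroxylase subunits P4HA3 (1.10 in siPKCiz and 1.04 in siControl) and P4HA2 (0.52 and 0.53) had the largest changes. The lysyl hydroxylases PLOD1 (0.35) and PLOD2 (0.33) were higher in siControl. Of 12 genes listed for collagen export from the endoplasmic reticulum 0 passed at 24 h. At an unadjusted limma p under 0.05 there was 1 in siPKCiz and 0 in siControl. Their median changes were -0.09 in siPKCiz and -0.06 in siControl. Not all 12 are parts of the export machinery: the list also held the transcription factors CREB3L1 and CREB3L2, and TANGO2. Of 17 genes for propeptide removal and cross-linking 6 were higher in siPKCiz and 4 in siControl. The lysyl oxidase LOX was higher by 0.97 in siPKCiz and by 0.80 in siControl, its relative LOXL4 by 0.69 and 0.58, and the propeptide protease BMP1 by 0.74 and 0.58. PXDN, a peroxidase that cross-links collagen IV, was higher by 0.80 and by 0.68. Of all genes 4.65% were higher in siPKCiz and 5.85% in siControl.

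**Figure D5:**
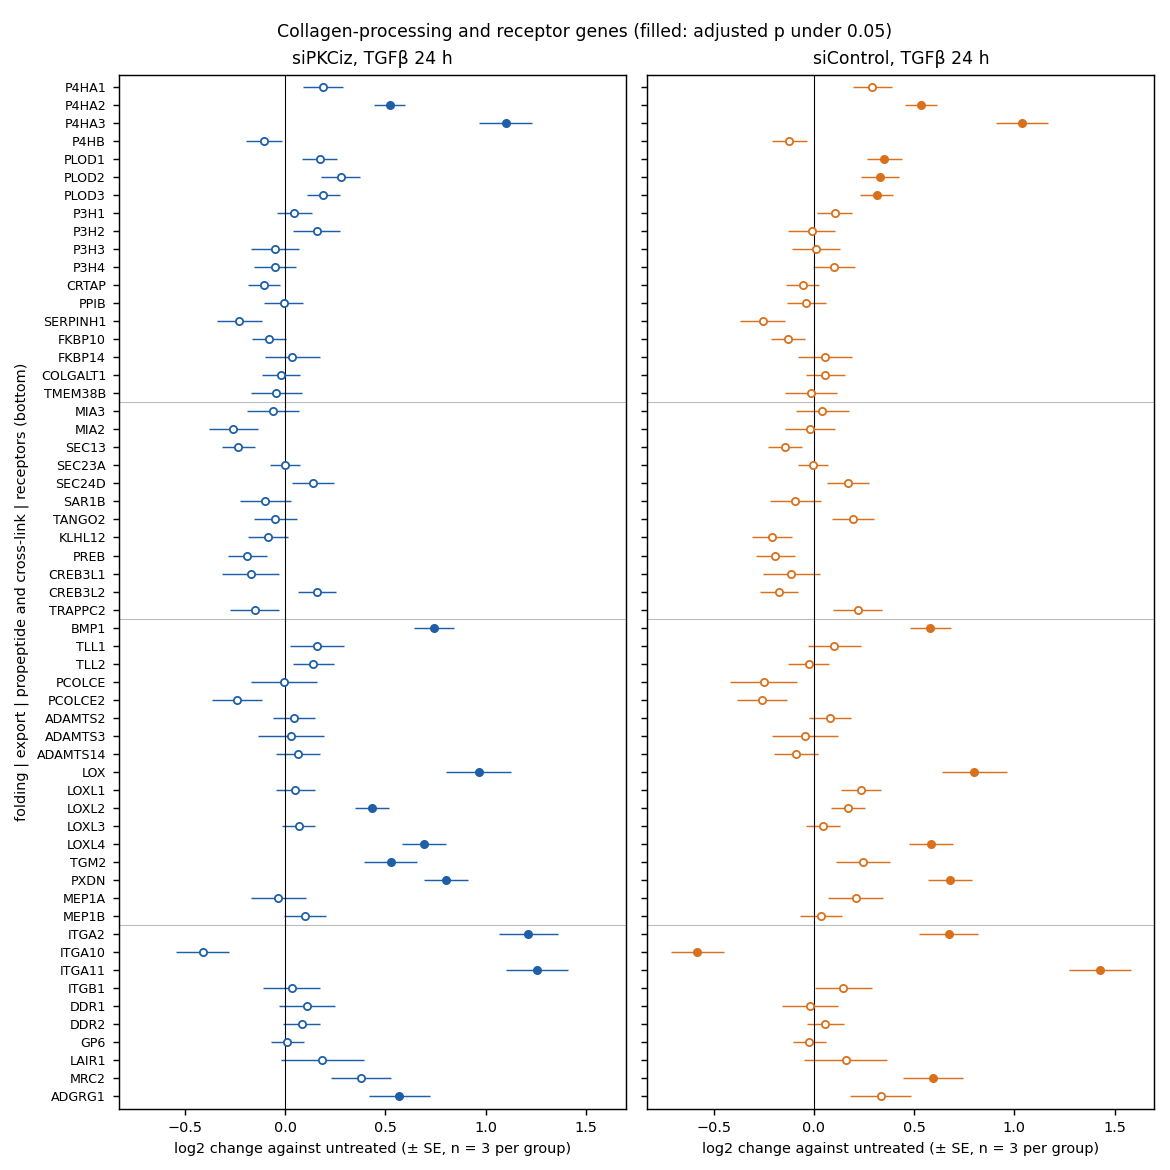
Log2 change (± SE) of TGFβ-treated cells at 24 h against untreated cells. From top to bottom are the measured genes of the lists for collagen folding, export, propeptide removal with cross-linking, and collagen receptors. The siPKCiz arm is left and siControl right, and filled points passed the test. ITGA11 has the largest change, 1.26 in siPKCiz and 1.43 in siControl, and no gene of the export list passed.

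Genes that sense or cut collagen also moved. Of 10 collagen receptors 3 were higher in siPKCiz at 24 h with none lower, and 3 were higher and 1 lower in siControl. Of all genes 4.65% were higher and 6.09% lower in siPKCiz, and 5.85% were higher and 6.46% lower in siControl. ITGA11, the integrin chain that binds collagen I, was higher by 1.26 in siPKCiz and 1.43 in siControl, and ITGA2, another collagen-binding integrin chain, by 1.21 and 0.67. The endocytic receptor MRC2 was higher in siControl (0.59) and the integrin chain ITGA10 lower there (-0.58). Of 10 collagenases and related proteases 5 were higher in each arm, against the same 4.65% of all genes in siPKCiz and 5.85% in siControl. The gelatinase MMP2 was higher by 2.68 in siPKCiz and 2.89 in siControl, the interstitial collagenase MMP1 by 2.17 and 2.19, MMP10 by 1.58 and 1.73 and MMP9 by 0.48 and 1.14. Over the mean of the conditions 4 of the 10 proteases were lower in siPKCiz, against 8.17% of all genes. They were MMP1 (-0.69), MMP2 (-0.60), MMP9 (-0.48) and MMP10 (-0.39). Of the receptors ITGA2 (-0.67) and GP6 (-0.16) were lower. GP6 was chosen after its values were seen. The group means of GP6 (6.78 to 7.14) and ITGA10 (6.37 to 7.11) lay below every array's median. None of the genes of these lists passed in the interactions.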

How the data were processed

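Expression was measured in 18 A549 samples on Affymetrix whole-transcript arrays, with 200 ng of RNA per array per the labels. The deposited values were linear intensity, from 21.2 to 51230, and the submitters' processing notes name RMA and Partek, whose versions are not given in the sources used here. Before testing, log2 of the deposited intensity was taken once, with no further normalization. Of 28869 probe sets 19310 had 1 gene symbol, 1752 several and 7807 none in the platform table; the brightest stood for each symbol.

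The model, run in limma 3.58.1 under R 4.3.3, had a mean for each of the 6 groups, eBayes without its trend and robust options, and Benjamini-Hochberg adjustment over 18377 genes in each of 12 comparisons. A gene passed at an adjusted p under 0.05. A value after ± is the fit's standard error. P-values rest on the spread between replicates within groups, pooled over all 6 groups and moderated across genes. The 3 replicates of each group limit the precision. The fit was also run on simulated data with independent noise between arrays. That run did not include the deviation of replicate 1, and no result here rests on it.

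The members and lists were chosen with earlier results of these data known. Named genes were all members that passed in any comparison, the chains of shared molecules, and up to 4 genes of each other list with the largest change at 24 h in siControl. Other list genes were chosen after their values were seen. Alternatives were a replicate block, a filter on dim probe sets (above the array median on at least 3 arrays), array weights, quantile normalization, a minimum fold of 1.5, centring on the array median, eBayes with trend and robust, only the groups compared, all probe sets, and leaving out each replicate number.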

Additional observations from a re-analysis of the deposited data

How the results depend on the processing

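No value changed sign in a call under any alternative. The counts of collagen genes that passed moved by more than 1.5 times as follows, and the cause was not tested. With array weights 11 passed at 8 h in siControl (6 in the main setting), against 19% of all genes under that setting, and 8 between 24 h and 8 h in siPKCiz (3), against 2.11%. Between the arms 4 passed untreated (0), against 16.1%, 5 at 8 h (1), against 15.9%, 4 at 24 h (2), against 6.68%, and 14 over the mean (6), against 32.6%. Requiring a fold of 1.5 left 5 at 24 h in siPKCiz (10) and 6 in siControl (11), 1 between 24 h and 8 h in siPKCiz, and between the arms 0 at 8 h, 1 at 24 h and 0 over the mean. Fitting only the groups compared left 0 between 24 h and 8 h in siPKCiz, against 0.147% of all genes. Between the arms at 24 h it left 1, against 1.25%, and the filter on dim probe sets left 1 there, against 5.76%. The replicate block left 1 between 24 h and 8 h in siPKCiz, against 0.419% of all genes. It left 0 between the arms at 8 h, against 3.35%, and 1 at 24 h, against 2.07%. With it 9 single gene calls were lost. Deviations of same-numbered arrays from their group means correlated at -0.51 to 0.26, with 7 of 45 pairs over 0.1. Of 18 arrays 0 correlated best with its own number. In replicate 1 pairs of a siPKCiz and a siControl array lay at -0.51 to -0.28, apart from the untreated pair at 0.02. The lowest pair was at -0.34 in replicate 2 and at -0.27 in replicate 3. What a shared number stands for was not tested. Leaving out each replicate number gave the following counts, with the range over all genes in brackets. In siPKCiz they were 2 to 5 at 8 h (1.76 to 6.11%) and 6 to 9 at 24 h (4.24 to 9.45%). In siControl they were 5 to 7 (3.71 to 15.9%) and 6 to 13 (4.11 to 15.6%). Between 24 h and 8 h they were 0 to 6 in siPKCiz (0.00544 to 1.63%) and 0 to 7 in siControl (0.0599 to 3.65%). Between the arms they were 0 to 2 untreated (0.147 to 8.23%) and 0 to 10 at 8 h (0.131 to 19%). Between the arms at 24 h they were 0 to 6 (0.0979 to 11.3%), and 1 to 12 over the mean (4.55 to 31.4%). In the interactions the count was 0 under each alternative. The 19 genes below the median on every array have little signal over background, which limits what can be read from them.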

Other observations

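Proteins that bind collagen and the laminins, the other network of basement membranes, were read in the same fits. Of 21 measured collagen-binding matrix genes 5 were higher with TGFβ at 24 h in siPKCiz and 5 in siControl, where 1 was lower. Of all genes 4.65% were higher in siPKCiz and 5.85% in siControl. LUM, a proteoglycan of collagen fibrils, was higher by 0.84 in siPKCiz and 1.28 in siControl. THBS1 was higher by 1.00 and 1.02, SPARC, a collagen chaperone, by 1.12 and 0.94, and NID1, which links laminin to collagen IV, by 0.74 and 0.75. ABI3BP was lower in siControl (-0.52). MATN3 had group means of 9.60 at 24 h and 8.88 untreated in siControl, and of 9.32 and 9.23 in siPKCiz. ABI3BP and MATN3 were chosen after their values were seen. LUM is also among the fibroblast markers.

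Of 10 measured laminin chain genes, 0 passed at 24 h in siPKCiz (limma; 1 at an unadjusted p under 0.05) and LAMB3 was higher in siControl (0.65). Over the mean of the conditions 4 of the 10 were lower in siPKCiz, against 8.17% of all genes. These were LAMC1 (-0.50), LAMA4 (-0.49), LAMB1 (-0.28) and LAMB4 (-0.24). The group means of LAMA4 (6.17 to 6.95) and LAMB4 (5.98 to 6.37) lay below every array's median, which limits what can be read from them. Over the same mean 3 of the 21 collagen-binding genes were lower, SPARC (-0.51), ABI3BP (-0.22) and HSPG2 (-0.20), and LUM (0.55) was higher. Of the 17 genes for propeptide removal and cross-linking PXDN (-0.50), PCOLCE2 (-0.21) and LOXL2 (-0.15) were lower, and LOXL4 (0.24) was higher. In the folding list P4HB (0.29) was higher, and TMEM38B (-0.55), FKBP10 (-0.37), SERPINH1 (-0.30), the collagen chaperone known as HSP47, and P4HA1 (-0.20) were lower. The genes of this paragraph other than LAMB3, PXDN, SPARC, LUM and LOXL4 were chosen after their values were seen.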
